A study of Mus musculus with 4 samples.

Results

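The genes described here are 47 genes of DNA replication and S phase, chosen by name from the 44788 genes of the deposited count table, and all 47 were found there. They were grouped by role into origin licensing (12 genes), helicase activation (6), polymerases and primase (9), clamp loading, single-strand binding and strand maturation (10), nucleotide supply (5), and E2F, cyclin E and DNA methylation (5). The cells were bone marrow stromal cells of Setd2 fl/fl mice (strain C57BL/6J), in which loxP sites flank part of the gene of the histone H3 lysine 36 methyltransferase Setd2. Cells passaged 2 times received a lentivirus with Cre recombinase, which deletes the floxed part, or a lentivirus with GFP as control, and both groups were grown with 2 µg/ml puromycin for 4 days. RNA sequencing gave 2 libraries for Cre and 2 for GFP, with no Cre control in cells that lack loxP sites. Nothing in the labels tells whether the paired libraries of Cre or of GFP stem from different cultures or mice, so a p-value reflects library-to-library spread, possibly only technical.

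Replication starts at origins that were licensed in G1. The origin recognition complex, with Cdc6 and Cdt1, loads the MCM helicase, and geminin (Gmnn) blocks Cdt1 after S phase begins. Cdc45 and the GINS complex then turn MCM into an active helicase, polymerase alpha-primase lays down primers, and polymerases epsilon and delta extend them on the leading and the lagging strand. Many of these genes are transcribed at the border of G1 and S by E2F factors, so their RNA is widely read as a sign of cycling cells.

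Part of the promoters carried the letters to which E2F factors are known to bind. RefSeq promoters (GRCm38.p6) spanned 250 bases before to 50 after an annotated start site, which can lie inside the gene. They matched 38 of the 47 genes, with 47 promoters in all. In every list a gene was counted if any of its promoters held the letters. The letters TTTCCCGC, TTTGGCGC, TTTCGCGC or TTTGCCGC, searched on both strands, were in 16 of the 38 (42.1%), against 7 of 33 other replication genes (21.2%), 1 of 23 mitosis genes (4.35%), 455 of 9881 tested genes with a promoter (4.60%) and 704 of all 27025 genes of the promoter table (2.60%). Copies may overlap, and 6 genes held more than 1. Dnmt1 held the letters only in a promoter inside the gene, and not in that at its outermost start. The following 80 bases before the promoter's start site show copies for genes of licensing and for the catalytic polymerase alpha subunit. Every E2F copy of the stretch is in capitals. They lie at chr8:75109322-75109401 (plus strand) for Mcm5, chr1:128359741-128359820 (minus strand) for Mcm6, chr5:138172005-138172084 (minus strand) for Mcm7, chr4:108579374-108579453 (plus strand) for Orc1, chr11:98907977-98908056 (plus strand) for Cdc6 and chrX:93632250-93632329 (minus strand) for Pola1.
Mcm5: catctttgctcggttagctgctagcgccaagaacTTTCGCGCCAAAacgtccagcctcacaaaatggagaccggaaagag
Mcm6: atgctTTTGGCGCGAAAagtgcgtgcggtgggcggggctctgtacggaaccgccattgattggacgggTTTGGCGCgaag
Mcm7: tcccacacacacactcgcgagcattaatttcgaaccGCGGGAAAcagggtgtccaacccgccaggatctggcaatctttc
Orc1: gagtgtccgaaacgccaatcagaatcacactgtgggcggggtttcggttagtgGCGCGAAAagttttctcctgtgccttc
Cdc6: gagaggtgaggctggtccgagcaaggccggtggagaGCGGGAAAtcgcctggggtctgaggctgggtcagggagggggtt
Pola1: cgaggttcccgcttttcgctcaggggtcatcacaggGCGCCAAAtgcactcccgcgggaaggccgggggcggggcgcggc
In Mcm5 and Mcm6, copies on opposite strands overlap. The Mcm3 copies lie after the start site, in bases not shown. The stretches of Mcm7, Orc1, Cdc6 and Pola1 lie inside the annotated gene, whose outermost start is further upstream. The letters are a description of sequence and not a measure of binding.

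**Figure D1:**
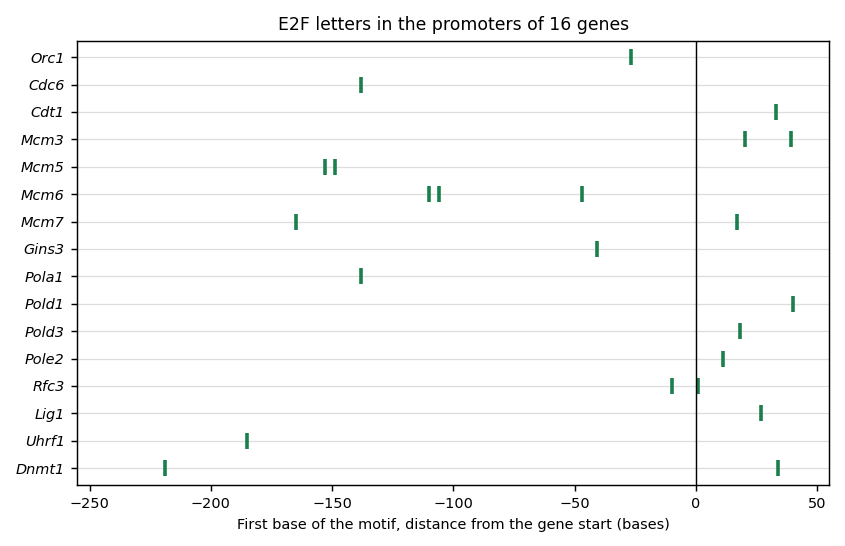
Position of the E2F letters in the promoters of the 16 genes that hold them. Each tick is the first base of a copy, by its distance in bases from the promoter's start site (black line, labelled gene start). The copies do not share one position, and several genes hold theirs after the start.

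Setd2, the targeted gene, had 551 and 468 counts in the Cre libraries, against 1400 and 1250 in the GFP libraries. Its log2 fold change was -1.60 with a standard error of 0.08 (edgeR adjusted p = 3.65e-15). Libraries held 14311924 and 14315903 counts with Cre and 12806928 and 12371994 with GFP. Levels are given in CPM, the counts scaled to a common library size. By total counts alone, without the further scaling for composition used in the values below, a count of 3 stood for between 0.210 and 0.242 CPM. Abundant noncoding RNAs moved with the groups: all 10 that were tested fell with Cre, with a median log2 fold change of -1.71. This list, with 12 genes in the table, was chosen on these data. Ribosomal RNA of the small subunit (Rn18s-rs5) took 1.35% and 1.21% of counts with Cre, against 2.07% and 7.45% with GFP, so GFP replicate 2 stood apart and GFP replicate 1 was also above Cre. Without that library edgeR called 0 genes of the whole table (2197 at an unadjusted p under 0.05), and without GFP replicate 1 it called 12, so the calls below rest on both. All 14 stromal markers had counts, with summed levels of 21649 and 22688 CPM with Cre and 17494 and 17287 CPM with GFP. Of these 5 rose and 1 fell, and the median log2 fold change was -0.03, since the sum rests on abundant collagen genes such as Col1a1 and Col1a2. All 13 macrophage markers also had counts, and 4 rose and 1 fell, with a median of 0.16; their summed level was 2499 and 2498 CPM with Cre and 2120 and 2200 CPM with GFP. Of 7 erythroid markers the haemoglobin genes Hba-a1, Hba-a2, Hbb-bs and Hbb-bt were at 0 in every library. The part of the stromal and macrophage RNA in the values below was not tested, and fewer cycling cells and less RNA per cell cannot be told apart in such bulk libraries.

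Of the 47 replication and S-phase genes, 1, the polymerase gene Pole, fell with Cre, and 0 rose. All 47 passed the filter on low counts. Over all 14483 tested genes, 6.97% were called at an adjusted p of 0.05, 3.22% lower and 3.74% higher, so the members' count of calls was not above that background. DESeq2 called 0 of the 43 to which it gave an adjusted p, with 2 lower at an unadjusted p under 0.05. At an unadjusted p under 0.05, 10 of the 47 were lower and 0 higher. Over all tested genes 10.4% were lower and 10.6% higher at that level. At this looser threshold the members' share was thus larger than that of all genes on the lower side and smaller on the higher side.

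The values as a whole also leaned to one side. The log2 fold change was below 0 for 36 of 47 genes (76.6%), against 51.1% of all tested genes, and the median was -0.12, against -0.00 over all tested genes. This is a median difference of 7.85%. Both Cre libraries lay below both GFP libraries in 29 genes (61.7%), where the background was 25.5%, and above them in 2 genes (4.26%), where it was 24.5%. The groups overlapped in the other 16. The summed level of the 47 genes was 1531 and 1521 CPM with Cre, against 1602 and 1635 CPM with GFP, a difference of -5.71%. Both GFP sums were above both Cre sums. With the abundant noncoding RNAs removed before scaling, the median stayed at -0.12 and 1 member was called. As a share of all counts, without scaling for composition, the genes took 0.155% and 0.154% with Cre and 0.164% and 0.155% with GFP, so GFP replicate 2, the library rich in ribosomal RNA, was close to the Cre libraries on that scale.

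The intervals show how large a change the data allow. For 42 of the 47 genes the 95% interval of the log2 fold change lay wholly within 1.5-fold in either direction. The same held for 10678 of all 14483 tested genes. The exceptions among the 47 were Pole, Gins3, Rpa3 and Ccne2, whose lower limits were -0.60, -0.72, -0.70 and -0.63, and Pole2, whose upper limit was 0.64. For 10 genes (Pole, Mcm2, Mcm3, Mcm10, Pola1, Rrm2, Dut, Ccne1, Ccne2 and Dnmt1) the interval excluded 0, each time on the lower side. Over all 14483 tested genes it excluded 0 for 3031, about the same share, but on either side. Between the GFP libraries the members scattered little: the median chi-square of those with over 200 counts in the pair was 1.21 times counting noise, and 1.78 times between the Cre libraries, against 2.25 to 4.70 times between libraries of different groups. Over all genes with such counts the ratio was 2.32 between the GFP libraries, 1.78 between the Cre libraries and 3.10 to 4.61 between groups, so the step between groups was not particular to these genes.

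**Figure D2:**
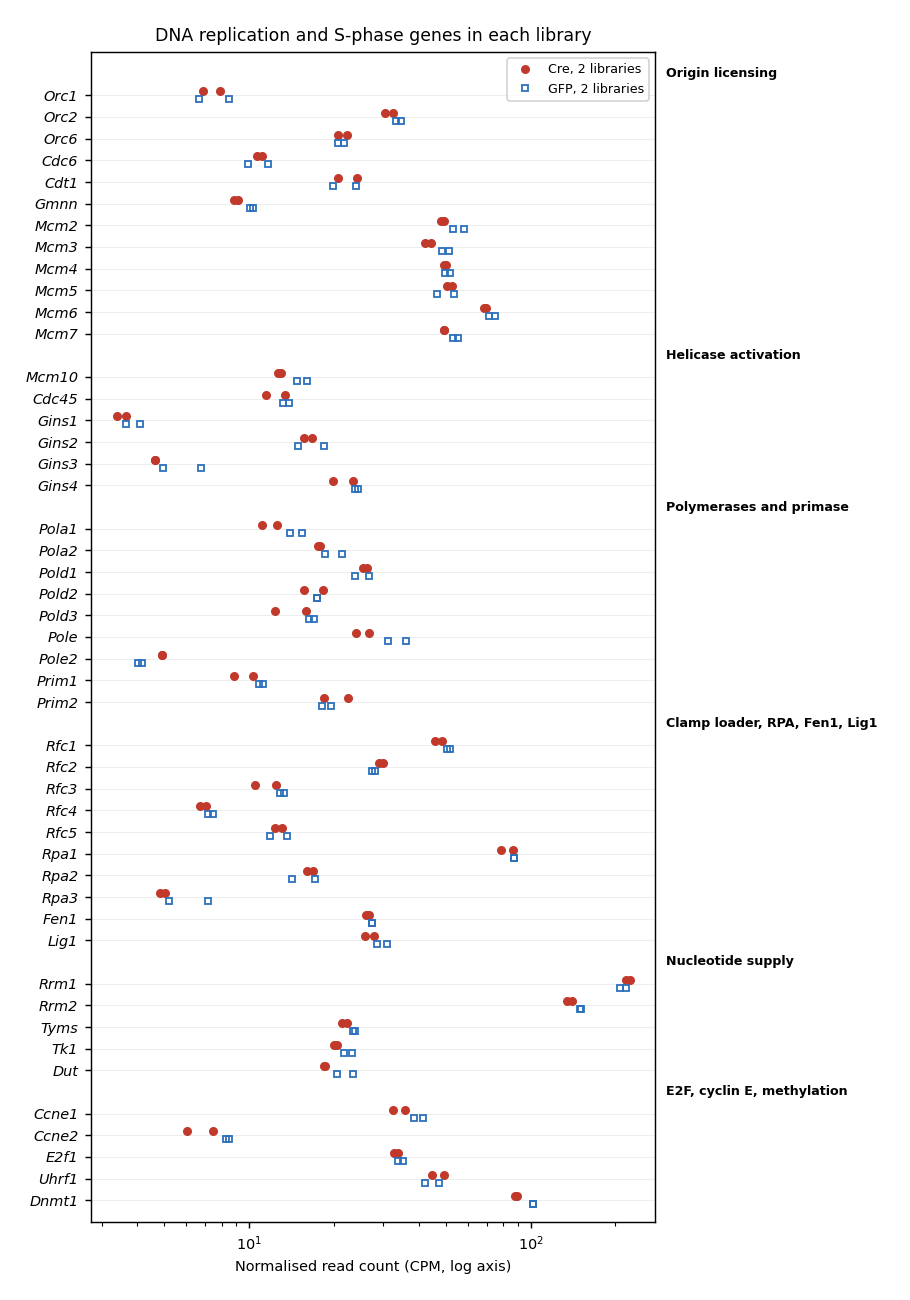
Level of each of the 47 genes in each library, in CPM on a log axis, grouped by role. Filled circles are the Cre libraries and open squares the GFP libraries. In 29 genes both circles lie left of both squares, by small distances.

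Among the licensing genes 0 of 12 passed the test, and the median log2 fold change was -0.06. The MCM helicase, the ring that unwinds DNA at the fork, is built from the products of Mcm2 to Mcm7. Mcm2 had 48.1 and 49.4 CPM with Cre, against 53.1 and 58.1 CPM with GFP (log2 fold change -0.19, standard error 0.08, edgeR adjusted p = 0.139). Mcm3 had 44.3 and 42.1 CPM with Cre, against 48.6 and 51.3 CPM with GFP (-0.21, standard error 0.08, edgeR adjusted p = 0.102), the lowest log2 fold change of the licensing genes. Neither gene's groups overlapped, and neither difference passed the test.

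Mcm6 had 68.2 and 69.5 CPM with Cre, against 71.0 and 74.9 CPM with GFP, and Mcm7 had 49.1 and 49.4 CPM with Cre, against 53.1 and 55.3 CPM with GFP. Their log2 fold changes were -0.08 (edgeR adjusted p = 0.555) and -0.14 (edgeR adjusted p = 0.297). Groups overlapped for the remaining subunits. Mcm4 had 49.9 and 49.3 CPM with Cre, against 51.7 and 49.7 CPM with GFP (-0.03, edgeR adjusted p = 0.862). Mcm5, the highest log2 fold change of the licensing genes, had 50.6 and 52.7 CPM with Cre, against 46.4 and 53.3 CPM with GFP (0.05, edgeR adjusted p = 0.762). Without GFP replicate 1 the sign of Mcm5 turned, to -0.05. Together the MCM genes summed to 310 and 312 CPM with Cre, against 324 and 343 CPM with GFP.

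None of the loaders of MCM passed the test. Orc1, Orc2 and Orc6, subunits of the origin recognition complex, had log2 fold changes of -0.03, -0.11 and 0.01. Both Cre libraries of Orc2 lay below both GFP libraries, with 32.5 and 30.3 CPM against 34.6 and 33.2 CPM, and the groups overlapped for Orc1 and Orc6. Cdc6 stood at 0.02 and Cdt1 at 0.04, with groups that overlapped. Gmnn, the inhibitor of Cdt1, had 8.86 and 9.12 CPM with Cre, against 10.0 and 10.3 CPM with GFP (-0.18, 95% interval -0.45 to 0.10, edgeR adjusted p = 0.495). Neither Gmnn nor Cdt1 passed the test, and without Cre replicate 2 or GFP replicate 1 Cdt1 stood at -0.07 or -0.09, on the same side of 0 as Gmnn.

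All 6 genes of helicase activation had a log2 fold change below 0, with a median of -0.14, and 0 passed. Mcm10, which helps to start the helicase, had 12.9 and 12.6 CPM with Cre, against 14.8 and 16.0 CPM with GFP (-0.27, 95% interval -0.51 to -0.03, edgeR adjusted p = 0.177). Gins3 had the lowest value of these genes, with 4.64 and 4.63 CPM with Cre, against 6.77 and 4.94 CPM with GFP (-0.35, standard error 0.18, edgeR adjusted p = 0.286). GFP replicate 1 alone was high, and the GFP spread was wider than the gap from its lower library to Cre. Gins2 had the highest, with 16.7 and 15.7 CPM with Cre, against 18.5 and 14.9 CPM with GFP (-0.05, edgeR adjusted p = 0.856), and without GFP replicate 1 it stood at 0.12. Gins1, the least abundant of the 47 genes, had 49 and 53 counts with Cre and 48 and 48 with GFP, or 3.39 and 3.66 CPM against 3.65 and 4.09 CPM (-0.13, edgeR adjusted p = 0.777). Gins4 stood at -0.15 and Cdc45 at -0.12.

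Pole encodes the catalytic subunit of polymerase epsilon, which copies the leading strand, and is annotated on the plus strand at chr5:110286319-110337468 (GRCm38). Its level was 26.6 and 24.1 CPM with Cre, against 31.1 and 36.1 CPM with GFP, that is 25.3 ± 1.83 and 33.6 ± 3.52 CPM (mean ± SD, n = 2 each). The groups did not overlap. The log2 fold change was -0.40 with a standard error of 0.09 (edgeR adjusted p = 0.00634), a level 24.4% lower with Cre. The call was lost in DESeq2 (adjusted p = 0.134), without a low-count filter (0.250), and without Cre replicate 2 (0.130), GFP replicate 1 (0.246) or GFP replicate 2 (0.317), while the log2 fold change stayed between -0.51 and -0.29.

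Pole2, another subunit of polymerase epsilon, lay on the other side of 0. It had 4.91 and 4.91 CPM with Cre, against 4.03 and 4.17 CPM with GFP (0.26, 95% interval -0.13 to 0.64, edgeR adjusted p = 0.472), from counts of 71 and 71 against 53 and 49. It was 1 of the 2 members with both Cre libraries above both GFP libraries. The difference between Pole and Pole2 in their response was not tested.

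Of the remaining polymerase and primase genes none passed. Pola1, the catalytic subunit of polymerase alpha, had 11.1 and 12.6 CPM with Cre, against 15.4 and 14.0 CPM with GFP (-0.31, 95% interval -0.56 to -0.06, edgeR adjusted p = 0.129). Its partners Pola2, Prim1 and Prim2 stood at -0.18, -0.20 and 0.12. In polymerase delta, which copies the lagging strand, the catalytic subunit Pold1 stood at 0.04, Pold2 at -0.04 and Pold3 at -0.23. Over the 9 genes the median was -0.18.

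**Figure D3:**
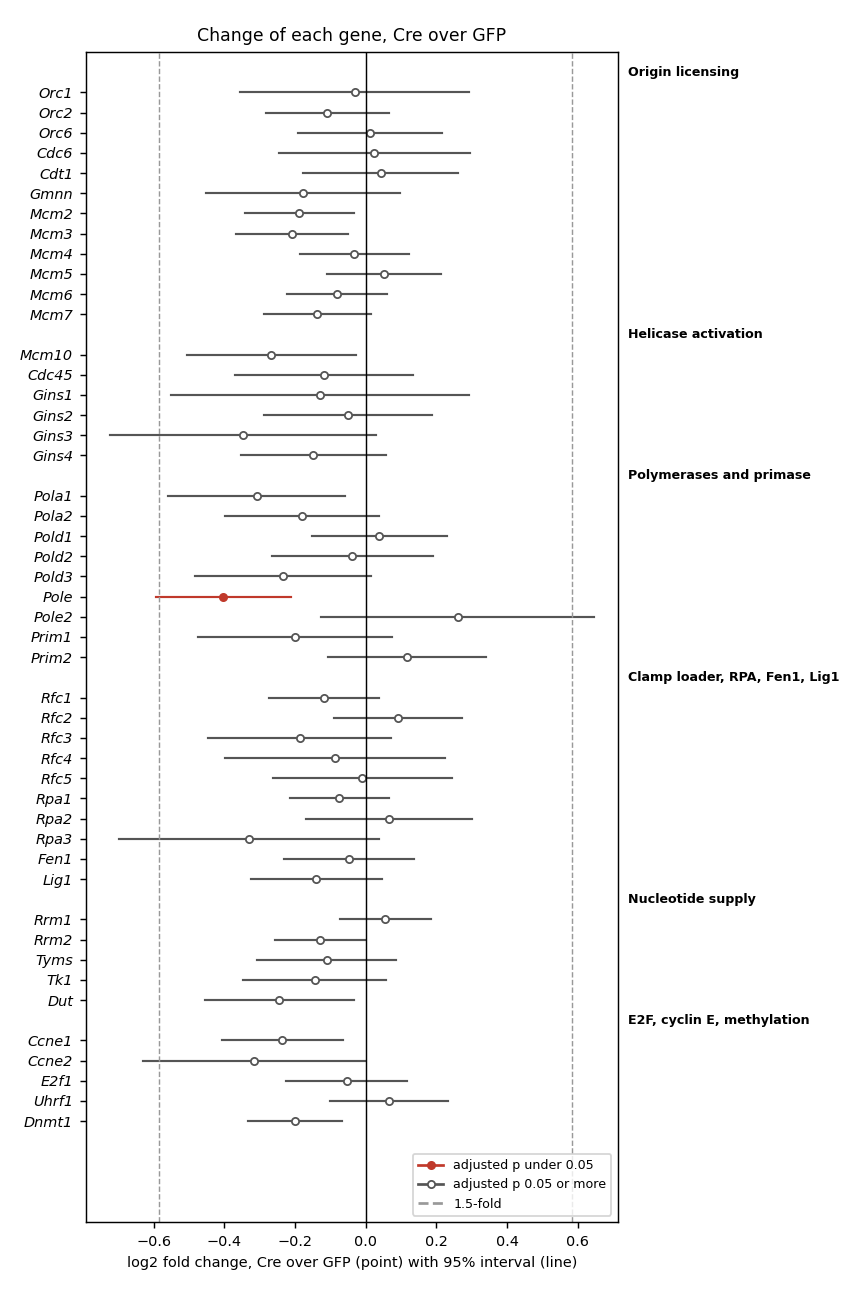
Log2 fold change of each gene, Cre over GFP (points), with its 95% interval (lines), by role. The filled red point is Pole, the 1 gene with an adjusted p under 0.05, and dashed lines mark 1.5-fold. Of 47 intervals, 42 lie wholly between the dashed lines.

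Among the 10 genes of clamp loading, single-strand binding and strand maturation the median was -0.08, and 0 passed. The clamp loader sets the sliding clamp on DNA. Its subunit gene Rfc2 was the highest, with 29.1 and 29.9 CPM with Cre, against 28.0 and 27.3 CPM with GFP (0.09, edgeR adjusted p = 0.608), and the other loader subunits lay between -0.19 (Rfc3) and -0.01 (Rfc5). Rpa3, the small subunit of the single-strand binding protein RPA, was the lowest, with 4.84 and 5.05 CPM with Cre, against 7.15 and 5.19 CPM with GFP (-0.33, standard error 0.18, edgeR adjusted p = 0.302). As with Gins3, GFP replicate 1 was high and GFP replicate 2 lay near the Cre libraries. Rpa1 and Rpa2 stood at -0.07 and 0.07. Fen1, which trims flaps of Okazaki fragments, stood at -0.05, and Lig1, the ligase that seals them, at -0.14.

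The nucleotide supply genes held the most abundant members. Rrm1, the large subunit of ribonucleotide reductase, which makes deoxynucleotides, had 218 and 224 CPM with Cre, against 207 and 219 CPM with GFP (0.06, 95% interval -0.07 to 0.19, edgeR adjusted p = 0.679). Its partner Rrm2, the subunit whose level is known to follow S phase, had 140 and 135 CPM with Cre, against 150 and 151 CPM with GFP (-0.13, 95% interval -0.26 to -0.00, edgeR adjusted p = 0.230). The groups overlapped for Rrm1 and not for Rrm2. Dut, which removes dUTP, was the lowest of these genes, with 18.5 and 18.7 CPM with Cre, against 23.4 and 20.5 CPM with GFP (-0.24, standard error 0.10, edgeR adjusted p = 0.161). The thymidylate genes Tyms and Tk1 stood at -0.11 and -0.14, and both Cre libraries of each were below both GFP libraries. Over the 5 genes 0 passed, with a median of -0.13.

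Cyclin E drives entry into S phase, and E2f1 is a transcription factor of the G1/S border. Ccne1 had 32.5 and 35.7 CPM with Cre, against 41.6 and 38.7 CPM with GFP (-0.24, 95% interval -0.41 to -0.06, edgeR adjusted p = 0.0864). Ccne2, the lowest of these 5 genes, had 7.47 and 6.01 CPM with Cre, against 8.52 and 8.26 CPM with GFP (-0.32, standard error 0.15, edgeR adjusted p = 0.235). E2f1 itself had 33.7 and 32.8 CPM with Cre, against 33.8 and 35.3 CPM with GFP (-0.05, 95% interval -0.23 to 0.12, edgeR adjusted p = 0.771). Without Cre replicate 2 Ccne2 stood at -0.17 and Ccne1, at -0.30, was the lowest of the 5. Neither cyclin E gene overlapped between groups, and the gap for E2f1 was smaller than the spread between its GFP libraries.

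Dnmt1 copies DNA methylation onto new strands, and Uhrf1 guides it there. Dnmt1 had 89.8 and 88.1 CPM with Cre, against 102 and 102 CPM with GFP (-0.20, standard error 0.07, edgeR adjusted p = 0.0601), and passed only with robust dispersion estimates (adjusted p = 0.0409). Uhrf1, the highest of the 5 genes, had 49.2 and 44.6 CPM with Cre, against 42.3 and 47.4 CPM with GFP (0.07, edgeR adjusted p = 0.706). Its groups overlapped, and without GFP replicate 1 or Cre replicate 1 its value was -0.02 or -0.00. Over the 5 genes of this group the median was -0.20.

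Levels between genes were compared per kilobase of the longest coding transcript in GENCODE M21. On that scale the 47 genes spanned from 2.08 CPM per kb (Gins3) to 65.5 CPM per kb (Rrm2), averaged over the 4 libraries. The MCM genes, whose products enter the ring in equal numbers, lay close together, from 14.0 (Mcm4) to 17.5 CPM per kb (Mcm7). The ratio of the highest to the lowest MCM gene was between 1.19 and 1.35 in every library. Rrm1 and Rrm2 were also close, at 54.3 and 65.5 CPM per kb.

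Other complexes were less even on the same scale. The GINS genes spanned 8.15-fold, from Gins3 to Gins4 at 17.0 CPM per kb, the polymerase alpha-primase genes 4.02-fold, from Pola1 at 2.48 to Prim2 at 9.97, and the clamp loader genes 2.25-fold, from Rfc5 to Rfc1. Pole stood at 4.12 and Pole2 at 2.64 CPM per kb. A shorter transcript in use would raise these levels. Gins3, the lowest gene, has a coding transcript of 654 bases beside that of 2519 bases used here, so its place and the GINS span depend on this choice. Gins2 and Rfc2 have 1 annotated coding transcript each, of 3900 and 4995 bases.

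**Figure D4:**
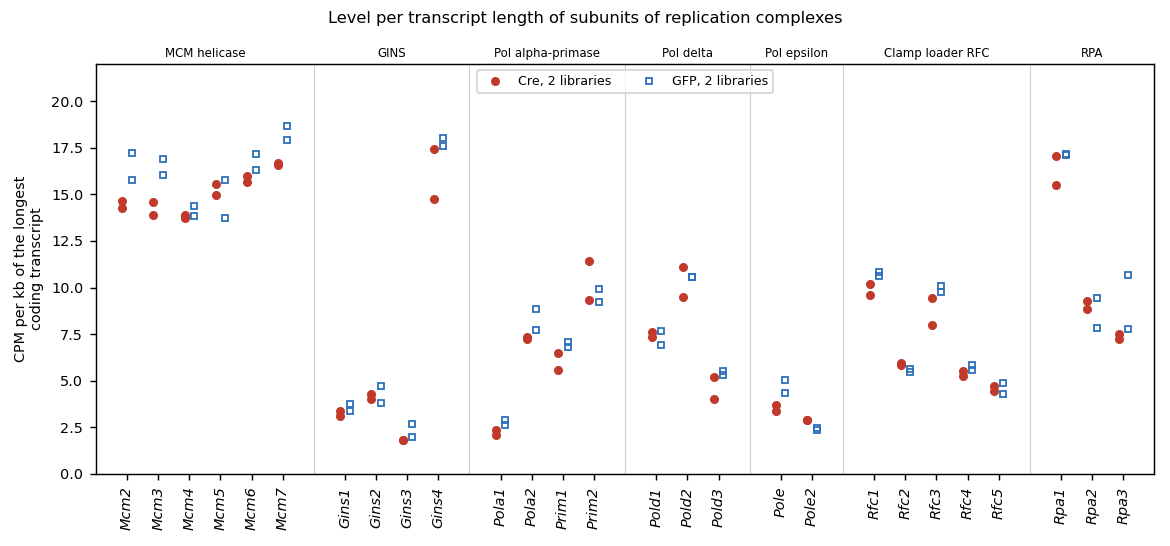
Level per kilobase of the longest coding transcript, in CPM per kb, for the subunit genes of 7 replication complexes. Filled circles are the 2 Cre libraries and open squares the 2 GFP libraries. The MCM genes lie near one level, whereas Gins4 stands well above the other GINS genes.

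Some counts are uncertain, since nothing states that strand was used in counting. Of the 47 genes, 9 share at least 10% of their exon bases with another gene of GENCODE M21: Fen1 (84.2%), Gins2 (67.3%, with Gse1), Orc2 (29.8%), Ccne2 (17.4%), Rfc2 (15.1%), Rfc4 (12.7%), Mcm7 (12.6%), Orc1 (10.8%) and Rfc5 (10.7%). For Rfc4 the partner Eif4a2 was far more abundant, with 2548 and 2592 counts with Cre and 2616 and 2152 with GFP, beside 102 and 97 counts with Cre and 98 and 84 with GFP for Rfc4 itself. Pseudogenes of 13 members are in the table, and the highest was the Tk1 pseudogene Gm6091 with 18 and 19 counts with Cre and 20 and 29 with GFP, 7.52% of the counts of Tk1.

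Replication genes outside the 47 were also read, as a list of 40. In this list 3 fell (7.5%) and 0 rose, where 6.97% of all tested genes were called and 3.22% were called lower. The log2 fold change was below 0 for 30 (75%, against 51.1% of all tested genes), and the median was -0.14. The genes that fell were Samhd1, which breaks down deoxynucleotides (138 ± 0.571 CPM with Cre and 169 ± 0.311 CPM with GFP, SD, n = 2 each), Clspn, a checkpoint adaptor at the fork (18.6 ± 1.19 and 24.6 ± 3.32 CPM), and Atad5, which unloads the sliding clamp (9.27 ± 1.48 and 13.4 ± 2.80 CPM). Their edgeR adjusted p-values were 0.00351, 0.0171 and 0.0190. Pcna, the clamp itself, had 57.6 and 62.1 CPM with Cre, against 60.4 and 53.6 CPM with GFP (0.07, 95% interval -0.09 to 0.22, edgeR adjusted p = 0.683), and its groups overlapped.

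Mitosis genes stood further from 0 than the replication genes. Of 27 mitosis genes 18 fell (66.7%, against 3.22% of all tested genes) and 0 rose. Their median log2 fold change was -0.32, against -0.12 for the 47 genes. Both Cre libraries lay below both GFP libraries in all 27 mitosis genes, against 29 of the 47 and 25.5% of all tested genes. Mki67, which marks cycling cells, had 114 and 95.8 CPM with Cre, against 119 and 132 CPM with GFP (-0.26, edgeR adjusted p = 0.0305). Without GFP replicate 1 or GFP replicate 2, 0 of the 27 were called by edgeR, and DESeq2 called 6. The mitosis list, like the others, was chosen with earlier results of these data known. Its share of calls is thus a description and not an independent contrast with all tested genes. The lists are described side by side, and the difference between them was not tested.

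Genes with and without E2F letters had like medians. Only the exact letters given above were searched, so a gene without them is not shown to lack E2F sites. The 16 genes with the letters had a median log2 fold change of -0.11 (from -0.35 to 0.26), and both Cre libraries were below both GFP libraries in 9 of them. The 22 genes with a promoter but without the letters also had a median of -0.11 (from -0.33 to 0.07), with 16 genes below. The share below was 25.5% over all tested genes, and the difference between the 2 sets was not tested. Pole, the gene that fell, was among the 9 members not matched to the promoter table.

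**Figure D5:**
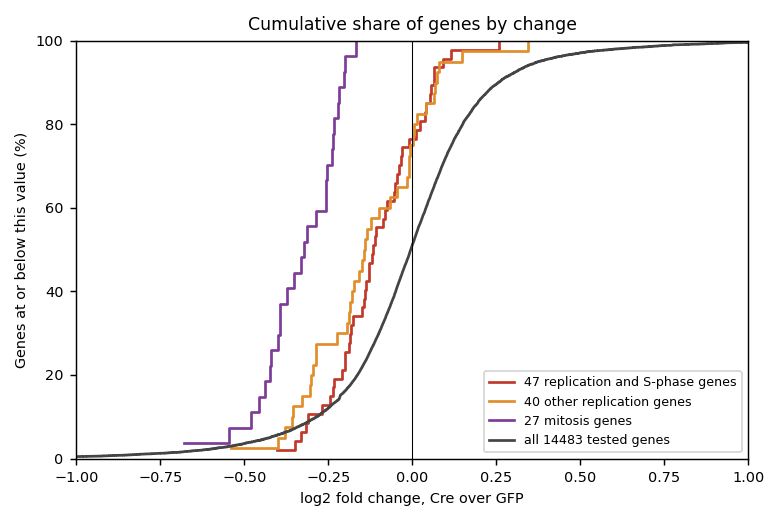
Cumulative share of genes (%) by log2 fold change, Cre over GFP, for the 47 replication and S-phase genes, 40 other replication genes, 27 mitosis genes and all 14483 tested genes. Over most of their height, though not at the lowest values, the curves of both replication lists lie left of that of all genes, with medians of -0.12 and -0.14, and the mitosis curve lies further left at a median of -0.32.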

How the data were processed

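Per the labels' protocols, RNA libraries were made with an Illumina TruSeq kit. The authors deposited whole-number read counts per gene, without normalization. The submitters' processing notes name HISAT2 and GRCm38. For the counting program, annotation, strand and multiply mapped reads, nothing is given in the sources used here.

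Counts were tested with edgeR 4.0.16 in R 4.3.3: filterByExpr (minimum count 10, minimum total 15) kept 14483 genes, TMM factors lay between 0.951 and 1.03, and the quasi-likelihood F-test of Cre over GFP had its p-values adjusted by Benjamini-Hochberg over every tested gene (threshold 0.05). The standard error is the log2 fold change over the root of F, with a 95% interval on the test's degrees of freedom. CPM use TMM-scaled library sizes. Floors and intervals cover counting error and replicate spread only. The test was also run on simulated data drawn from its own fitted spread, with no library made to stand apart. That run checks the code and cannot tell how well the test suits these libraries.

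The members and lists were chosen with earlier results of these data known. Per-library values are given for Setd2, members past the test, the highest and lowest log2 fold change per role, Mcm2 to Mcm7, and the most and least abundant member. Values added for further members (Orc2, Gmnn, Mcm10, Pola1, Rrm2, Ccne1, E2f1 and Dnmt1, and the counts of Rfc4) were chosen after they were seen. Alternatives included DESeq2 1.42.0 and limma-voom (limma 3.58.1). Symbols were matched to GENCODE M21 and RefSeq GRCm38.p6 for all 47 members. A planned search of protein sequences was not done.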

Additional observations from a re-analysis of the deposited data

How the results depend on the processing

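The member count and median were recomputed under 13 alternatives, 4 of which leave out a library each, and the counts also at an adjusted p of 0.01. In none of them was a member called higher. Scaling by library size alone called 530 genes (347 higher, 183 lower) and gave a member median of -0.085, against -0.12, with the median of all genes at 0.03. DESeq2 called 378 genes (250 higher, 128 lower) and 0 members, and edgeR without a low-count filter 30 genes (18 higher, 12 lower) and 0 members. Robust dispersion estimates called 2 members lower, Pole and Dnmt1. At an adjusted p of 0.01 there were 477 genes (257 higher, 220 lower). Leaving out 1 library gave from 0 to 516 genes (0 to 257 higher, 0 to 259 lower), 0 or 1 members lower, and a member median from -0.12 to -0.088; the group with 1 library is taken to scatter as the other does. Of the 27 mitosis genes, 18 were called lower, against 8 with library size alone, 6 with DESeq2, 0 without a low-count filter and 0 to 9 with a library left out. With the replicate number as a block 829 genes and 1 member, Pole, were called (adjusted p = 0.0118). The labels do not say whether the replicate numbers pair the libraries. The differences between replicates 1 and 2 correlated at -0.0089 between the groups over 14483 genes. No shared replicate effect was thus seen, which cannot tell whether libraries of one number share an origin. Of the 47 genes, 12 turned sign when some library was left out (Orc1, Orc6, Cdc6, Cdt1, Mcm5, Gins2, Pold1, Pold2, Prim2, Rfc5, Rpa2 and Uhrf1), and with library size alone Orc1 and Rfc5 stood at 0.0020 and 0.021. With a library left out, Mcm5 ranged from -0.046 to 0.15, Gins2 from -0.19 to 0.12 and Uhrf1 from -0.016 to 0.15, with -0.0011 without Cre replicate 1. The causes were not tested. Setd2 was not called without GFP replicate 2 (adjusted p = 0.124). With 2 libraries a group, 5 of the 47 intervals reach beyond 1.5-fold.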

Other observations

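Genes that control the passage from G1 to S moved both ways. Of 26 such genes 1 rose and 2 fell (11.5% called, against 6.97% of all tested genes). The median log2 fold change was -0.02. The repressor gene E2f6 had 50.5 and 46.7 CPM with Cre, against 39.5 and 42.1 CPM with GFP (log2 fold change 0.25, standard error 0.08, edgeR adjusted p = 0.0470). E2f7, which encodes another repressor of E2F targets, had 9.90 and 8.22 CPM with Cre, against 12.5 and 14.6 CPM with GFP (-0.58, standard error 0.14, edgeR adjusted p = 0.00676). Ccna2, the cyclin of S phase and G2, had 39.4 and 39.0 CPM with Cre, against 49.9 and 48.5 CPM with GFP (-0.33, standard error 0.08, edgeR adjusted p = 0.00767). None of these calls was made without GFP replicate 2, as 0 genes of the table were.

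The promoters of the mitosis genes differed in sequence from those of the replication genes. The letters TTTGAA or TTCGAA, known as the CHR element of cell cycle genes, were searched on either strand in any promoter of a gene. They were found for 18 of 23 mitosis genes (78.3%) and for 8 of 38 replication and S-phase genes (21.1%). The share was 16.2% of tested genes with a promoter and 21.7% of all genes of the promoter table.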
